A study of Mus musculus with 12 samples.

Results

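The ErbB family comprises receptor tyrosine kinases and the EGF-like ligands that activate them, and 10 of its genes were followed here among the 43280 gene symbols of a mouse RNA-seq count table. They were chosen by name: the receptors Egfr, Erbb2, Erbb3 and Erbb4, the ligands Nrg1, Areg, Hbegf, Btc and Tgfa, and the intracellular inhibitor Errfi1. All 10 were in the table, and 8 of them passed the filter on low counts that preceded testing, which left 17030 genes. Areg and Btc did not pass. That Egfr and Erbb3 differ in opposite directions with Kit was known when the genes were listed, so that pattern is described below and is not an independent finding.

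The libraries came from epithelium of the embryonic mouse submandibular salivary gland at day 15 of gestation, from the strain Tg(KRT5-Venus)1Sgkd, in which a keratin 5 promoter drives the fluorescent protein Venus. Cells positive for E-cadherin were separated by flow cytometry for the receptor Kit and for Venus into the groups Kit+K5+ (positive for both), Kit+K5-, Kit-K5+ and, negative for both, Kit-K5-, with 3 libraries each. All 4 groups therefore share the transgene, the age and the E-cadherin gate, and K5+ means positive for Venus rather than for the keratin 5 protein. How many embryos went into a library is not stated, so p-values measure only the spread between these libraries, which may be technical.

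Each of the 12 libraries held 5589037 to 13724364 counts of single 50 nt reads. Kit transcripts followed the gate, at 303 to 335 CPM (library-size-normalised counts, TMM-scaled) in Kit+K5+ and 283 to 445 CPM in Kit+K5- libraries, against 15.3 to 26.4 CPM in Kit-K5+ and 10.03 to 20.4 CPM in Kit-K5- libraries. Krt5 was low, at 1.57 to 9.93 CPM in Kit+K5+ against 0.317 to 4.63 CPM in Kit+K5- libraries, which overlap, and at 13.5 to 22.9 CPM in Kit-K5+ against 0.853 to 7.15 CPM in Kit-K5- libraries. The Kit-K5- libraries stood apart: 20 general epithelial markers summed to 353 to 447 CPM there, against 1193 to 2382 CPM in the other 9 libraries, and 12 mesenchymal markers summed to 11640 to 18909 CPM, against 580 to 1120 CPM. Cdh1, which encodes E-cadherin, averaged 173 ± 24.4 CPM in Kit-K5- cells (SD, n = 3). Mast cell markers, which matter here because mast cells carry Kit, summed to 5135 CPM in replicate 1 of Kit+K5-, to 120 and 218 CPM in its other libraries and to at most 47.8 CPM elsewhere, with Fcer1a and Mcpt4 at 0 counts in Kit+K5+. Leukocyte and macrophage markers summed to 191 to 1011 CPM and erythroid markers to 92.4 to 780 CPM in Kit-K5- libraries, against 54.3 to 70.1 CPM and 11.95 to 25.6 CPM in Kit-K5+ libraries. In Kit+K5- libraries leukocyte and macrophage markers summed to 523 CPM in replicate 1 and to 101 and 93.5 CPM in replicates 2 and 3. Within K5+ cells, neuron markers summed to 87.7 to 129 CPM in Kit+K5+ against 210 to 423 CPM in Kit-K5+ libraries, and basal duct markers to 898 to 1255 CPM against 1442 to 3161 CPM. By the tests below 0 of 10 neuron markers passed between these groups, and 1 of 13 basal duct markers did, lower in Kit+K5+. Between Kit-K5+ and Kit-K5- cells 5 of the neuron markers were lower in Kit-K5+ and 1 higher. The neuron sums thus do not describe the whole list. Schwann and glia markers summed to 86.1 to 226 CPM in Kit+K5+ and 164 to 207 CPM in Kit+K5- libraries. Kit-K5+ libraries had 89.0 to 275 CPM and Kit-K5- libraries 56.0 to 166 CPM. Of these 7 markers 0 passed with Kit in either K5 class, and 1 was higher and 2 lower with K5 in Kit- cells. Endothelial markers summed to 49.6 to 60.2 CPM in Kit-K5- and to 8.58 to 53.1 CPM in the other libraries. Mitochondrial genes took 5.59% to 12.2% of the counts in Kit-K5- libraries, against 24.2% to 30.6% in Kit-K5+ libraries, and without mitochondrial counts no call of the ErbB genes tested changed. Each comparison below thus has marker sums that move with its groups, and their part in the differences was not tested. In sorted bulk samples fewer cells of a type and less RNA per cell cannot be told apart.

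The genes lie on 8 chromosomes (GENCODE M21, GRCm38). Egfr is at 11:16752203-16918158 on the plus strand, Erbb2 at 11:98412470-98437716 plus, Erbb3 at 10:128567523-128589652 minus and Erbb4 at 1:68032186-69108059 minus. Of the ligand genes, Nrg1 is at 8:31814551-32884029 minus, Hbegf at 18:36504927-36515805 minus and Tgfa at 6:86195223-86275719 plus. Areg, at 5:91139599-91148432 plus, and Btc, at 5:91357261-91402994 minus, are part of a cluster of EGF-family ligand genes on chromosome 5, with 208828 bases between them and with Ereg 45952 bases before Areg. Errfi1 is at 4:150853919-150868892 plus. Exons of Nrg1 share 482 bases with those of the antisense lincRNA Gm26578, exons of Tgfa share 118 bases with Gm43917, and exons of Erbb2 share 9 bases with Mien1. Counting by strand is not stated, so reads from these stretches cannot be assigned to either partner.

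ErbB receptors signal as dimers. EGFR binds TGF-α, amphiregulin (Areg), HB-EGF and betacellulin (Btc), whereas neuregulins (Nrg1) bind ErbB3 and ErbB4, and HB-EGF and betacellulin also bind ErbB4. ErbB2 has no known ligand and serves as a partner, and ErbB3 has little kinase activity of its own but recruits PI3-kinase when paired with ErbB2 or EGFR. In the embryonic submandibular gland, EGFR ligands and neuregulin are known to promote epithelial branching in culture. Errfi1, also called Mig6, binds the kinase domain of EGFR and blocks its activation.

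Promoter sequences are shown for the genes with a difference past the test and an entry in the RefSeq table (GRCm38.p6), which matched 7 of the 10 genes. Egfr was lower in Kit+ cells of both K5 classes, and among K5- cells Erbb4 was lower and Tgfa higher in those with Kit, the sign of Tgfa turning when libraries were scaled to epithelial genes, as given below. The 250 bases before the transcription start are printed 5′ to 3′ on the gene's strand, at chr11:16751953-16752202 (plus) for Egfr, chr1:69108060-69108309 (minus) for Erbb4 and chr6:86194972-86195221 (plus) for Tgfa. Capitals mark matches on either strand to the GC box, GGGCGG or CCGCCC, and to the AP-2 motif, GCCNNNGGC.
Egfr: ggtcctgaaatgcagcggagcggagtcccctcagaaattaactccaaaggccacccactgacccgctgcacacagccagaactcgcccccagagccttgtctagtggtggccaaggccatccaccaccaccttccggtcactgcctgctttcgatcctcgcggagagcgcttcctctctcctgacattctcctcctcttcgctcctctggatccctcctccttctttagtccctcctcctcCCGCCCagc
Erbb4: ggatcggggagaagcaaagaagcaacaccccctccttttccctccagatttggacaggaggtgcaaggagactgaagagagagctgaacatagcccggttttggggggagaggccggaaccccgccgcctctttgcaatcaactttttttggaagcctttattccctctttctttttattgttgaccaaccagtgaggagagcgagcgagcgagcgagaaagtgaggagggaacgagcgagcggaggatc
Tgfa: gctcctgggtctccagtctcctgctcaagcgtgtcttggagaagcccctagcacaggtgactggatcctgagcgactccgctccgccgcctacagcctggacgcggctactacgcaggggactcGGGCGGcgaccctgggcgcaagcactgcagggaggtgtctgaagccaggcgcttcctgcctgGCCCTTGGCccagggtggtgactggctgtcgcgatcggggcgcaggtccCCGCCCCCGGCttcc
The Egfr promoter held 1 GC box match, near the start site, and no AP-2 match. The Tgfa promoter held 2 matches to each motif, the last GC box and AP-2 matches overlapping, and the Erbb4 promoter held neither. Among 32817 promoters of the same length, 32.7% held a GC box and 13.7% an AP-2 match. The GC content was 60.8% for Egfr, 54% for Erbb4 and 69.2% for Tgfa, against a median of 52.4% over all promoters. None of the 3 held TATAAA, which 12.4% of promoters did on either strand.

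Tests used edgeR's quasi-likelihood method in 1 fit of all 12 libraries, with Benjamini-Hochberg adjustment over 17030 genes and a threshold of 0.05. Log2 differences are given ± SE from that fit. It did not use replicate number as a block, and adjusted p with the block are given in the last section. With Kit, Egfr was lower and Erbb3 higher in both K5 classes. When libraries were scaled to epithelial genes, the Erbb3 difference with Kit passed in neither class. It was then at log2 0.02 in K5- and 0.82 in K5+ cells. Egfr with Kit stayed lower under that scaling but passed in K5- cells only. Among Kit- cells both genes were higher with K5, and the sign of this K5 difference turned under the same scaling. Between Kit+K5+ and Kit+K5- cells none of the 8 genes tested passed, where 0% of all genes did.

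Egfr, the receptor for EGF itself, was at 58.7, 92.9 and 131 CPM in Kit+K5+ libraries and at 33.1, 58.7 and 87.1 CPM in Kit+K5- libraries. It was at 272, 305 and 298 CPM in Kit-K5+ libraries and at 119, 121 and 136 CPM in Kit-K5- libraries. Replicate 3 was the highest and replicate 1 the lowest in both Kit+ groups. Kit+K5+ and Kit-K5+ libraries did not overlap, nor did Kit+K5- and Kit-K5- libraries, while the highest Kit+K5+ library exceeded the lowest Kit-K5- library. In K5+ cells the Kit+ over Kit- difference of Egfr was -1.63 ± 0.32 (log2, adjusted p = 0.0407), which leaves 0.322 times the level. In K5- cells it was -1.07 ± 0.32 (adjusted p = 0.0279), or 0.475 times the level.

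Within each replicate number the sign was the same: the log2 CPM difference of Egfr with Kit was -2.21, -1.71 and -1.19 in K5+ cells and -1.85, -1.04 and -0.64 in K5- cells for replicates 1, 2 and 3. With K5, Egfr was higher by 1.22 ± 0.32 in Kit-K5+ cells than in Kit-K5- cells (log2, adjusted p = 0.0192), a 2.33-fold difference. In Kit+ cells the K5 difference was 0.66 ± 0.32 (adjusted p = 0.744), with a 95% interval of -0.02 to 1.34, and the libraries overlapped. The K5 difference in Kit+ minus that in Kit- cells was -0.56 ± 0.45 (adjusted p = 0.550), so the data do not show that it differed between the Kit classes.

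**Figure D1:**
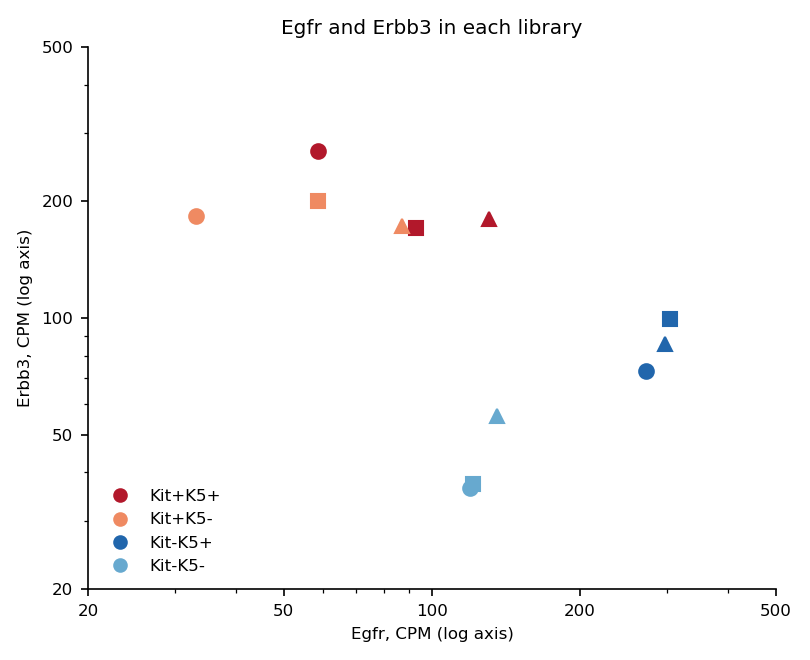
Egfr (horizontal axis) against Erbb3 (vertical axis) in CPM on log axes, each point a library coloured by sorted group, with circles, squares and triangles for replicates 1, 2 and 3. The 6 Kit+ libraries lie at 33.1 to 131 CPM of Egfr and 171 to 269 CPM of Erbb3, and the 6 Kit- libraries at 119 to 305 CPM of Egfr and 36.4 to 99.3 CPM of Erbb3.

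Erbb3, the neuregulin receptor that depends on a partner kinase, was at 269, 171 and 180 CPM in Kit+K5+ libraries and at 183, 200 and 173 CPM in Kit+K5- libraries. It was at 73.0, 99.3 and 85.7 CPM in Kit-K5+ libraries and at 36.4, 37.4 and 55.8 CPM in Kit-K5- libraries. All 6 Kit+ libraries lay above all 6 Kit- libraries, and the Kit-K5+ libraries above the Kit-K5- libraries. The Kit+ over Kit- difference was 1.26 ± 0.23 in K5+ cells (log2, adjusted p = 0.0393), 2.40-fold, and 2.10 ± 0.24 in K5- cells (adjusted p = 4.6e-05), 4.30-fold. With K5, Erbb3 was higher by 0.99 ± 0.23 in Kit-K5+ cells than in Kit-K5- cells (log2, adjusted p = 0.0107), against 0.15 ± 0.23 (adjusted p = 0.927, interval -0.33 to 0.64) between Kit+K5+ and Kit+K5- cells. The difference between these K5 effects was -0.84 ± 0.32 (unadjusted p = 0.0216, adjusted p = 0.177) and did not pass the adjusted test.

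Erbb2, the receptor without a known ligand, had no difference past the test. It was at 107, 112 and 68.6 CPM in Kit+K5+ libraries and at 97.0, 112 and 80.7 CPM in Kit+K5- libraries. Kit-K5+ libraries had 75.6, 78.9 and 103 CPM and Kit-K5- libraries 68.2, 79.5 and 63.6 CPM. Only Kit+K5- and Kit-K5- libraries did not overlap, with a log2 difference of 0.46 ± 0.23 (adjusted p = 0.174, interval -0.03 to 0.94). In the other 3 pairs of groups the log2 difference lay between -0.01 and 0.29 and none passed, the interval with Kit in K5+ cells being -0.33 to 0.64.

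Erbb4, a receptor for neuregulins, HB-EGF and betacellulin, was near the lower limit of detection, at 3 to 77 counts a library. It was at 3.6, 0.77 and 2.58 CPM in Kit+K5+ libraries and at 0.32, 0.32 and 1.75 CPM in Kit+K5- libraries. Kit-K5+ libraries had 8.75, 1.92 and 6.50 CPM and Kit-K5- libraries 3.08, 3.29 and 7.86 CPM. Every Kit+K5- library lay below every Kit-K5- library, and the other pairs of groups compared overlapped. The Kit+ over Kit- difference of Erbb4 in K5- cells was -2.61 ± 0.86 (log2, adjusted p = 0.0447), with a wide interval of -4.46 to -0.76. In K5+ cells it was -1.30 ± 0.80 (adjusted p = 0.407), lower in Kit+ in all 3 replicates.

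**Figure D2:**
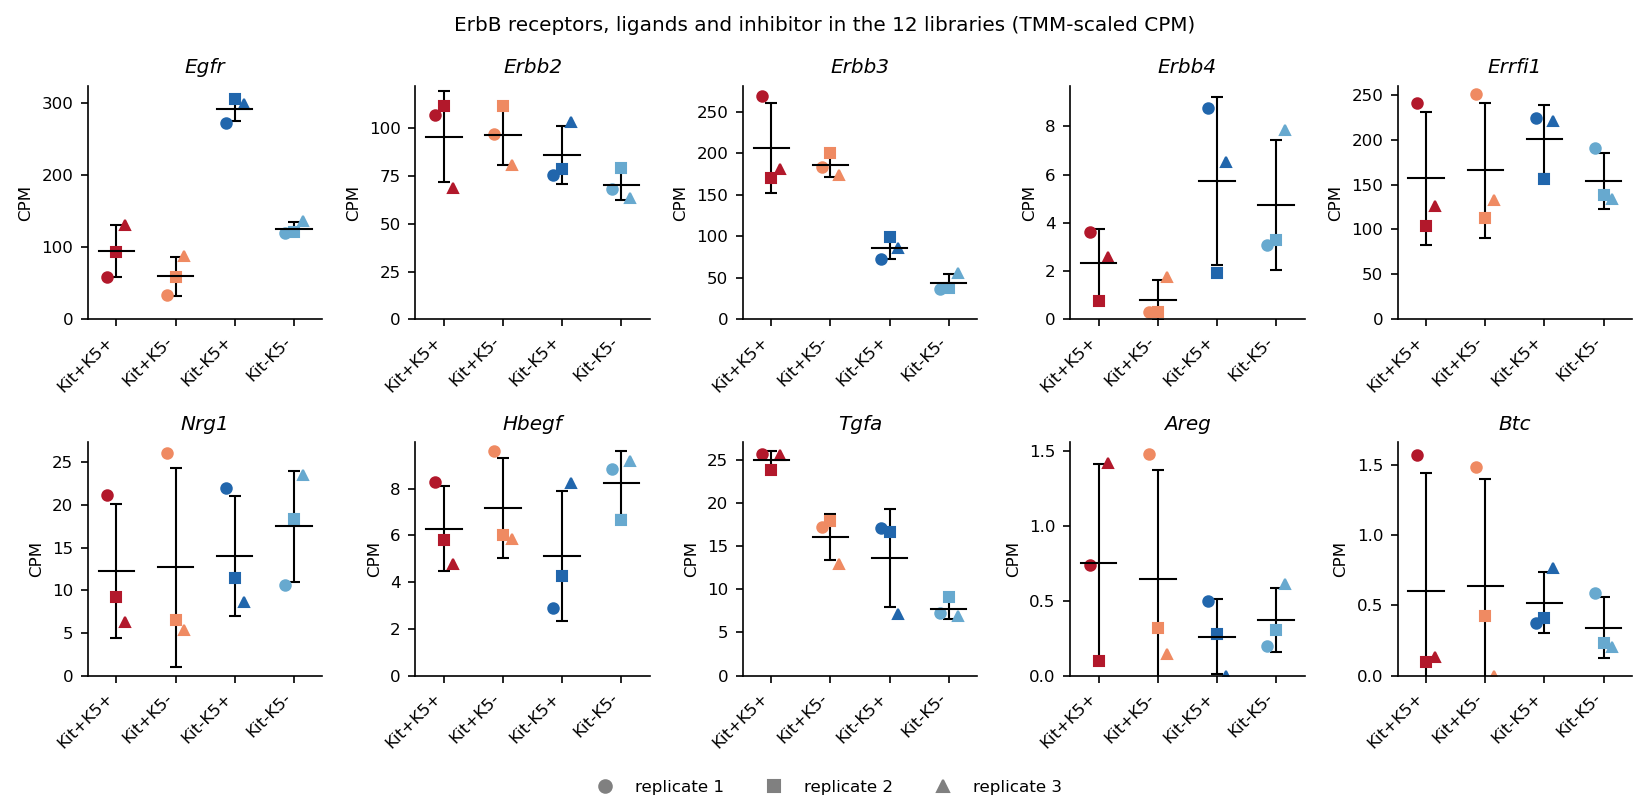
CPM (vertical axes, from 0, scaled separately) of the 10 genes in the 12 libraries, by sorted group. Circles, squares and triangles are replicates 1, 2 and 3, and black bars are the mean and SD. Egfr is highest in Kit-K5+ libraries and Erbb3 in the 6 Kit+ libraries, Tgfa is highest in Kit+K5+, and Areg and Btc stay below 1.6 CPM.

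Per kilobase of exon, the makeup of receptor transcripts differed between the Kit classes. Erbb3 made up 55.6% ± 7.22 of the summed CPM per kilobase of the 4 receptors in Kit+K5+ cells and 56.4% ± 1.85 in Kit+K5- cells, against 25.0% ± 2.66 in Kit-K5+ cells and 22.2% ± 4.37 in Kit-K5- cells (SD, n = 3 each). Egfr made up 14.2% ± 6.85 in Kit+K5+ cells and 9.67% ± 4.66 in Kit+K5- cells, against 45.3% ± 1.86 in Kit-K5+ cells and 34.4% ± 1.29 in Kit-K5- cells. Erbb2 held 24.0% to 36.9% of the sum in the 9 libraries other than Kit-K5- and 35.8% to 47.0% in Kit-K5-, and Erbb4 held at most 1.87% in any library.

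The order of receptor levels per kilobase was therefore Erbb3, Erbb2, Egfr and Erbb4 in both Kit+ groups, Egfr, Erbb2, Erbb3 and Erbb4 in Kit-K5+, and Erbb2, Egfr, Erbb3 and Erbb4 in Kit-K5- cells. In Kit-K5+ cells the neighbours Erbb2 and Erbb3, at 16.5 ± 2.92 and 14.3 ± 2.19 CPM per kilobase, lay within their spread. In Kit-K5- cells Erbb2, at 13.5 ± 1.56 CPM per kilobase, lay above Egfr, at 11.1 ± 0.80, by more than the SD of each. The ratio of Egfr to Erbb3 per kilobase was 0.263 ± 0.136 in Kit+K5+ cells and 0.173 ± 0.087 in Kit+K5- cells, against 1.82 ± 0.174 in Kit-K5+ cells and 1.58 ± 0.254 in Kit-K5- cells. This ratio within a library does not depend on scaling between libraries. It restates the Egfr and Erbb3 pattern known when the genes were listed, so it is not separate evidence. The part of cell mixture in it was not tested. The receptors summed to 61.2 ± 8.39, 54.7 ± 4.58 and 57.0 ± 5.02 CPM per kilobase in Kit+K5+, Kit+K5- and Kit-K5+ cells and to 32.2 ± 2.10 in Kit-K5- cells, the group with the low epithelial and high mesenchymal marker sums.

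**Figure D3:**
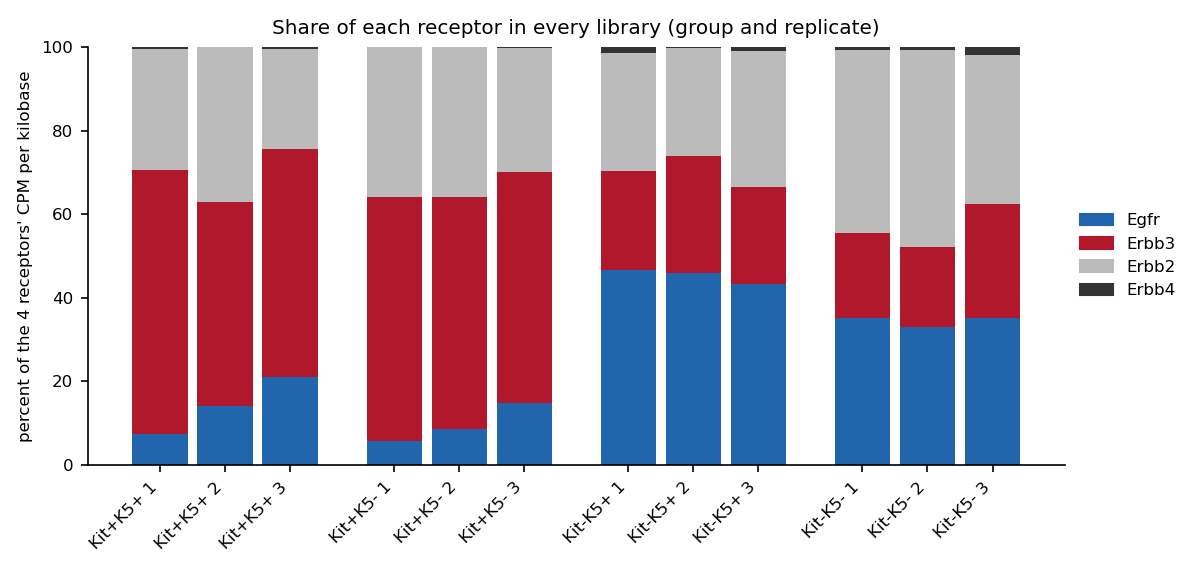
Share of Egfr, Erbb3, Erbb2 and Erbb4 in the summed CPM per kilobase of the 4 receptors (vertical axis, percent) in each of the 12 libraries. Erbb3 takes 48.9% to 63.2% of every Kit+ bar and 19.2% to 28.1% of every Kit- bar, and Egfr takes 5.61% to 21% of every Kit+ bar and 33% to 46.7% of every Kit- bar.

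Among the ligands, Tgfa, which encodes TGF-α, was the highest per kilobase on average in every group but Kit-K5-. The gene was at 25.6, 23.8 and 25.6 CPM in Kit+K5+ libraries and at 17.2, 17.9 and 13.0 CPM in Kit+K5- libraries. Kit-K5+ libraries had 17.1, 16.6 and 7.08 CPM and Kit-K5- libraries 7.21, 9.12 and 6.84 CPM. All Kit+K5+ libraries lay above the other 9, and replicate 3 of Kit-K5+ lay among the Kit-K5- libraries. The Kit+ over Kit- difference of Tgfa was 1.05 ± 0.34 in K5- cells (log2, adjusted p = 0.0388), 2.07-fold, and 0.87 ± 0.33 in K5+ cells (adjusted p = 0.194, interval 0.15 to 1.59). With K5 it was 0.64 ± 0.33 in Kit+ (adjusted p = 0.756) and 0.82 ± 0.34 in Kit- cells (adjusted p = 0.114). Without replicate 3 of Kit-K5+ the K5 difference in Kit- cells was 1.12 (adjusted p = 0.0253), with adjusted p from that value to 0.491 over its 21 alternatives. Within replicate numbers Tgfa was higher in K5+ and in Kit+ cells in 3 of 3 pairs of each of the 4 comparisons, by 0.05 to 1.82 on the log2 scale.

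Nrg1, the ligand of ErbB3 and ErbB4, had no difference past the test. It was at 21.2, 9.26 and 6.33 CPM in Kit+K5+ libraries and at 26.1, 6.53 and 5.39 CPM in Kit+K5- libraries. Kit-K5+ libraries had 22.0, 11.4 and 8.61 CPM and Kit-K5- libraries 10.6, 18.4 and 23.5 CPM. Replicate 1 was the highest in the first 3 groups and the lowest in Kit-K5-, and all pairs of groups overlapped. The Kit+ over Kit- difference of Nrg1 in K5- cells was -0.46 ± 0.61 (log2, adjusted p = 0.645). Without the 4 libraries of replicate 1 it was -1.78 (adjusted p = 0.0179). Over its 21 alternatives the adjusted p ran from 0.000221, under the scaling to epithelial genes, to 0.956. In the other 3 comparisons the log2 difference of Nrg1 was -0.31 to -0.05, with adjusted p of 0.773 to 0.993.

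Hbegf, which encodes HB-EGF, was at 8.30, 5.78 and 4.78 CPM in Kit+K5+ libraries and at 9.62, 6.0 and 5.83 CPM in Kit+K5- libraries. Kit-K5+ libraries had 2.88, 4.26 and 8.23 CPM and Kit-K5- libraries 8.85, 6.67 and 9.19 CPM. All pairs of groups overlapped and no difference passed. The largest was the K5 difference in Kit- cells, at -0.70 ± 0.45 (log2, adjusted p = 0.321, interval -1.67 to 0.28). Areg, which encodes amphiregulin, had 0 to 14 counts a library, at most 1.48 CPM, and Btc, which encodes betacellulin, 0 to 17 counts, at most 1.57 CPM. Areg was at 0 in replicate 3 of Kit-K5+ and Btc at 0 in replicate 3 of Kit+K5-, which allows levels of up to 0.537 and 0.393 CPM. For both, differences between groups were not detectable at this depth.

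Average levels of the ligands per kilobase lay below those of Egfr, Erbb2 and Erbb3 in each group. In Kit+K5+ cells Tgfa was at 3.85 ± 0.16, Hbegf at 1.30 ± 0.38, Nrg1 at 1.19 ± 0.76, Areg at 0.62 ± 0.55 and Btc at 0.13 ± 0.19 CPM per kilobase. In Kit-K5- cells the order was Hbegf at 1.70 ± 0.28, Nrg1 at 1.69 ± 0.63, Tgfa at 1.19 ± 0.19, Areg at 0.31 ± 0.18 and Btc at 0.08 ± 0.05 CPM per kilobase. Hbegf and Nrg1 did not differ beyond their spread in either group, and in Kit+K5+ cells Tgfa exceeded Hbegf by more than the SD of each. The same held in Kit+K5- cells, with 2.47 ± 0.41 for Tgfa and 1.48 ± 0.44 CPM per kilobase for Hbegf.

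Errfi1, the feedback inhibitor of EGFR, had no difference past the test. It was at 241, 103 and 126 CPM in Kit+K5+ libraries and at 251, 113 and 133 CPM in Kit+K5- libraries. Kit-K5+ libraries had 224, 156 and 221 CPM and Kit-K5- libraries 190, 138 and 134 CPM. Replicate 1 was the highest in every group, and all pairs of groups overlapped. The log2 difference of Errfi1 lay between -0.35 (Kit in K5+ cells, interval -1.09 to 0.38) and 0.38 (K5 in Kit- cells, interval -0.35 to 1.11), with adjusted p from 0.486 to 0.980.

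**Figure D4:**
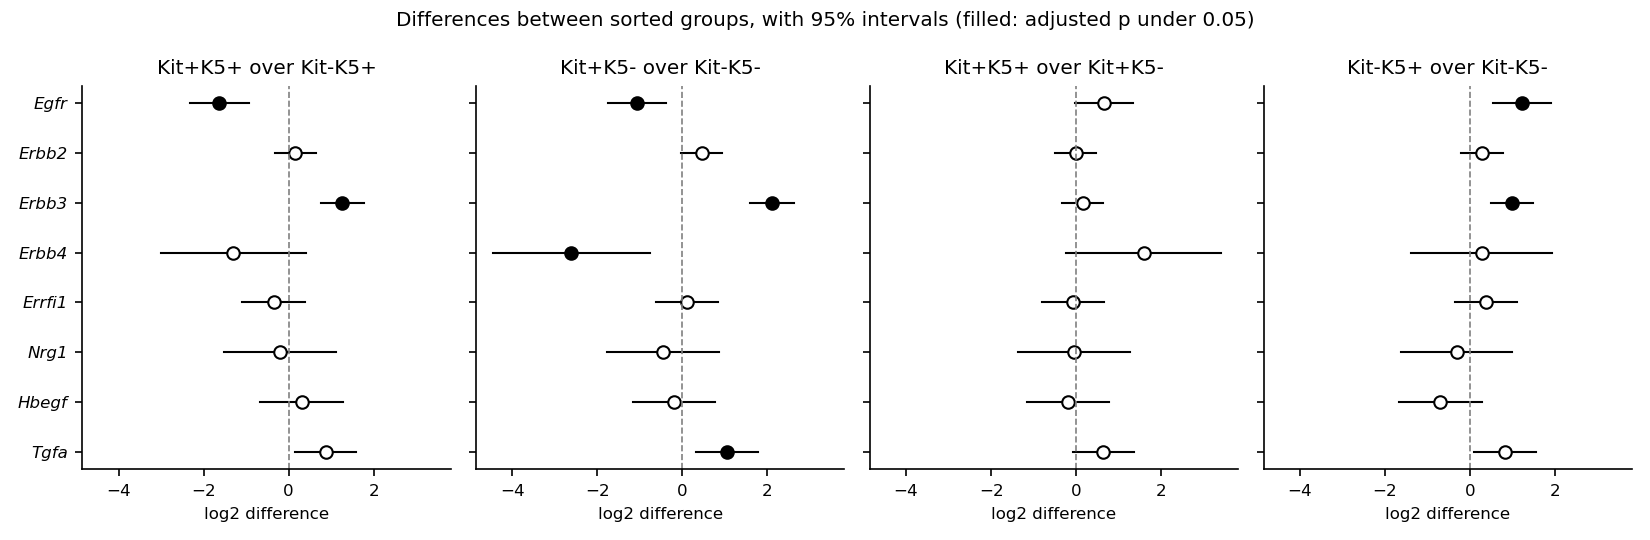
Log2 differences (horizontal axes) of the 8 genes tested between sorted groups, with 95% intervals, filled where the adjusted p was under 0.05. Egfr lies to the left and Erbb3 to the right in both Kit comparisons, and every interval includes 0 between Kit+K5+ and Kit+K5- cells.

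These counts stand against very different backgrounds. The opposite Kit differences of Egfr and Erbb3 were known when the genes were listed. The counts with Kit include both genes and so cannot be read as enrichment of the family. With Kit in K5+ cells 2 of 8 genes passed (Erbb3 higher, Egfr lower), where 0.658% of all genes tested did, and 3 had libraries that did not overlap, against 20.5% of all. With Kit in K5- cells 4 of 8 passed (Erbb3 and Tgfa higher, Egfr and Erbb4 lower), against 21.3%, and 5 did not overlap, against 41.3%. With K5 in Kit- cells 2 of 8 passed, both higher, against 16.5%, and 2 did not overlap, against 37.1%, which is near the background. With K5 in Kit+ cells 0 of 8 passed, where 0% of all genes did, and 1 gene (Tgfa) did not overlap, against 10.8%. In that comparison 1161 genes had an unadjusted p under 0.05, DESeq2 called 123 genes and limma-voom 0, and none of the 8 was called by either. The interaction was past the test for 0 of 8, against 4.02%. Median log2 differences over the 8 genes were -0.02 with Kit in K5+, -0.05 with Kit in K5-, 0.33 with K5 in Kit- and 0.07 with K5 in Kit+ cells, beside -0.05, 0.05, 0.04 and -0.04 over all genes. The comparisons share groups, so their calls are not separate evidence.

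The fits that left out libraries did not use replicate number as a block. In them only the Erbb3 difference with Kit in K5- cells passed without each of its 6 libraries in turn (log2 1.99 to 2.32). Egfr with Kit in K5+ cells kept its call only without replicate 3 of Kit+K5+ (log2 -1.91 to -1.35, adjusted p 0.0499 to 0.161), and in K5- cells only without replicate 3 of Kit+K5- (log2 -1.43 to -0.78, adjusted p 0.00979 to 0.0866). Erbb3 with Kit in K5+ cells lost its call without any of the 6 (log2 1.06 to 1.41, adjusted p 0.0542 to 0.121), where 4 to 63 genes in all were then called. Erbb4 and Tgfa with Kit in K5- cells kept theirs only without replicate 3 of Kit+K5- (log2 -3.84 to -2.05 with adjusted p 0.0177 to 0.162, and log2 0.95 to 1.20 with adjusted p 0.0433 to 0.133). With K5 in Kit- cells, Egfr and Erbb3 lost theirs without replicate 2 of Kit-K5+ and without replicate 1 or 2 of Kit-K5- (log2 1.16 to 1.26 with adjusted p 0.0386 to 0.0810, and log2 0.86 to 1.20 with adjusted p 0.00819 to 0.0711). Without replicate 1 of Kit+K5-, the library with the high mast cell sum, the Kit differences in K5- cells were -0.78 for Egfr (adjusted p = 0.0751), -2.22 for Erbb4 (adjusted p = 0.122) and 1.00 for Tgfa (adjusted p = 0.0864).

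Scaling mattered most where Kit-K5- libraries were compared. When libraries were scaled to the 20 general epithelial genes instead of by TMM, the median of all genes moved to -2.06 with Kit in K5- cells and to -1.69 with K5 in Kit- cells. Under that scaling Egfr with Kit stayed negative, at -3.08 (adjusted p = 4.2e-05) in K5- and -1.92 (adjusted p = 0.0539) in K5+ cells. Erbb3 with Kit was at 0.02 (adjusted p = 0.953) in K5- and 0.82 (adjusted p = 0.146) in K5+ cells, so its difference was then no longer past the test in either class. With K5 in Kit- cells the signs turned, to -0.50 for Egfr (adjusted p = 0.339) and -0.71 for Erbb3 (adjusted p = 0.0425). For Tgfa with Kit in K5- cells the difference turned to -1.10 (adjusted p = 0.0294). Relative to that median, Erbb3 with Kit in K5- cells was 2.08 higher and Egfr was at -1.02, on the log2 scale.

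**Figure D5:**
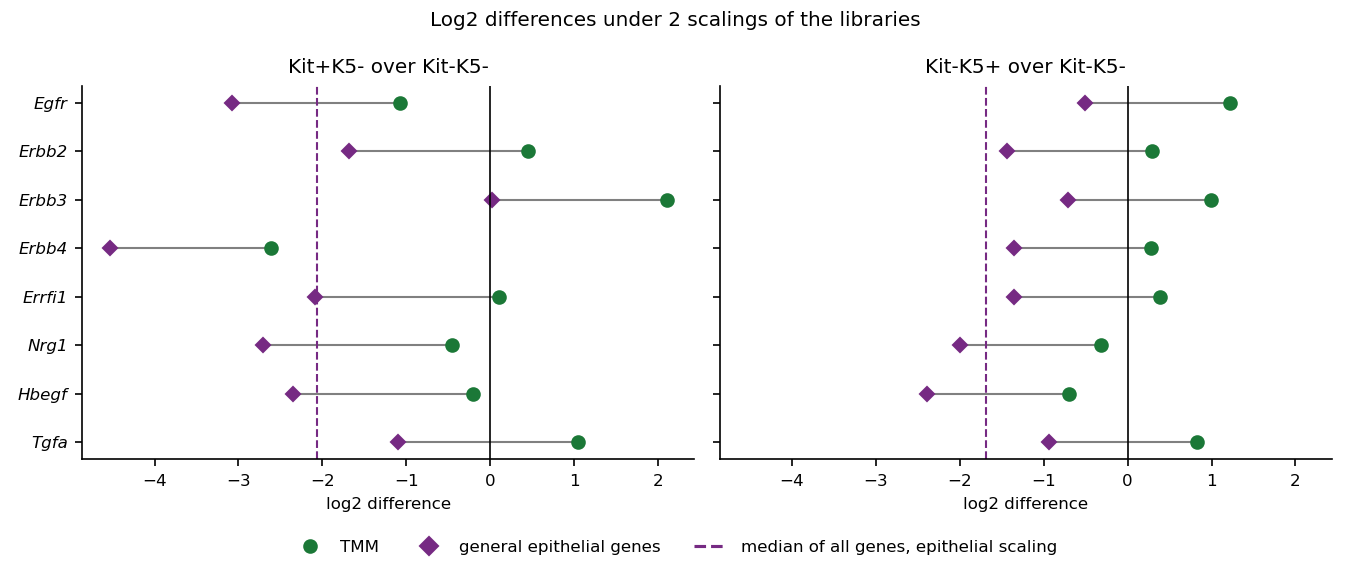
Log2 differences of the 8 genes tested (horizontal axes) with Kit in K5- cells and with K5 in Kit- cells, under TMM (circles) and after scaling to general epithelial genes (diamonds), with a dashed line at the median of all genes after that scaling. Each diamond lies to the left of its circle, Egfr with Kit stays below 0 and Erbb3 with Kit moves to 0.02.

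Other genes of the pathway were followed in 5 lists with 73 members, of which 72 were tested. Between Kit+K5+ and Kit+K5- cells and between Kit+K5+ and Kit-K5+ cells none of the 72 passed. Nearest to it was Ccnd1, cyclin D1, with Kit in K5+ cells at 567 ± 142 CPM in Kit+K5+ against 178 ± 89.9 CPM in Kit-K5+ cells (a log2 difference of 1.67 ± 0.36, adjusted p = 0.0539). With replicate number as a block Ccnd1 passed there (adjusted p = 0.00559), as did Grb7, Myc and Akt1 (0.0473, 0.0468 and 0.0399). The block called 788 of all 17030 genes in that comparison, against 112 without it, so these calls are not read as a result about the lists. The calls below are without the block and all involve Kit-K5- cells, whose mesenchymal marker sums were high. After scaling to general epithelial genes, which put the median of all genes at -1.69 with K5 in Kit- and -2.06 with Kit in K5- cells, 0 genes of these lists were higher in either comparison.

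Of 6 further ErbB ligands, 5 were tested and 1 passed, with K5 in Kit- cells, where 16.5% of all genes did. Epgn, the EGFR ligand epigen, encoded in the chromosome 5 cluster, was higher with K5 in Kit- cells, at 2.68 ± 0.73 CPM in Kit-K5+ against 0.384 ± 0.220 CPM in Kit-K5- cells (a log2 difference of 2.75 ± 0.82, adjusted p = 0.0343). Nrg2 and Nrg4, a ligand of ErbB3 and ErbB4 and a ligand of ErbB4, were the highest of the list on average. With Kit in K5- cells Nrg2 was at 3.96 ± 0.34 CPM in Kit+K5- against 0.961 ± 0.813 CPM in Kit-K5- cells (a log2 difference of 2.01 ± 0.76, adjusted p = 0.0744, and 0.0492 with the block). In the same comparison Nrg3, a ligand of ErbB4, was at 0.60 ± 0.53 CPM in Kit+K5- against 4.55 ± 1.74 CPM in Kit-K5- cells (a log2 difference of -2.94 ± 1.06, adjusted p = 0.0631, and 0.0125 with the block). The block called 4977 of all 17030 genes there.

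Of 9 genes for ligand shedding and trafficking, 3 were lower and 0 higher with K5 in Kit- cells, and 2 were lower with Kit in K5- cells. Of all genes 16.5% and 21.3% passed in these comparisons. Adam12, a metalloprotease able to shed HB-EGF, was at 5.50 ± 2.26 CPM in Kit-K5+ cells and at 6.51 ± 4.86 CPM in Kit+K5- cells, whereas Kit-K5- cells had 244 ± 41.3 CPM. Timp3, a metalloprotease inhibitor, was at 50.5 ± 19.4 CPM in Kit-K5+ cells and at 23.9 ± 8.13 CPM in Kit+K5- cells, whereas Kit-K5- cells had 264 ± 34.4 CPM. Adam9 was at 22.6 ± 2.66 CPM in Kit-K5+ against 44.6 ± 14.2 CPM in Kit-K5- cells (adjusted p = 0.0295). The main sheddases of ErbB ligands, Adam10 and Adam17, passed in no comparison, at 90.9 to 112 CPM and 90.3 to 101 CPM on average in the groups.

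Of 27 adaptors and effectors, 4 were higher and 1 lower with K5 in Kit- cells, and 5 were higher and 2 lower with Kit in K5- cells. These counts are near the shares of all genes, 16.5% and 21.3%. With the block, 4 were higher and 3 lower, and 5 higher and 4 lower, in the same comparisons. It called 4057 and 4977 of all 17030 genes there. Grb7, an adaptor that binds phosphorylated ErbB2 and ErbB3, whose gene at 11:98446394-98455373 lies near Erbb2, was at 33.2 ± 8.63 CPM in Kit-K5+ cells and at 69.5 ± 30.2 CPM in Kit+K5- cells, whereas Kit-K5- cells had 11.5 ± 0.79 CPM. Pik3r1, the regulatory subunit of PI3-kinase, was at 509 ± 58.5 CPM in Kit-K5+ against 169 ± 22.3 CPM in Kit-K5- cells (a log2 difference of 1.59 ± 0.19, adjusted p = 0.000102). Pik3cb, a catalytic PI3-kinase subunit, was at 27.3 ± 6.85 CPM in Kit-K5+ cells and at 45.7 ± 6.09 CPM in Kit+K5- cells, whereas Kit-K5- cells had 13.8 ± 2.27 CPM. Hras was at 38.4 ± 11.4 CPM in Kit+K5- against 10.9 ± 1.41 CPM in Kit-K5- cells (adjusted p = 0.0054). After epithelial scaling the signs of Pik3r1, Pik3cb and Hras turned in the comparisons named, and that of Grb7 with K5. Shc1, an adaptor of active receptors, went the other way, at 43.7 ± 12.4 CPM in Kit-K5+ cells and at 38.9 ± 4.85 CPM in Kit+K5- cells, whereas Kit-K5- cells had 84.8 ± 17.4 CPM.

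Of 16 genes for receptor turnover and inhibition, 3 were lower and 0 higher in each comparison with Kit-K5- cells. These counts are near the shares of all genes, 16.5% with K5 in Kit- and 21.3% with Kit in K5- cells. With the block, 5 were lower and 1 higher with Kit in K5- cells, where 4977 of all 17030 genes were called. Cblb, a ubiquitin ligase for active receptors, was at 131 ± 31.0 CPM in Kit-K5+ cells and at 101 ± 21.4 CPM in Kit+K5- cells, whereas Kit-K5- cells had 216 ± 14.1 CPM. Sh3kbp1, an adaptor of Cbl proteins in receptor endocytosis, was at 7.01 ± 4.81 CPM in Kit-K5+ against 80.2 ± 13.1 CPM in Kit-K5- cells (a log2 difference of -3.54 ± 0.67, adjusted p = 0.0032). Lrig1, a membrane protein that limits ErbB signalling, was at 31.5 ± 27.5 CPM in Kit-K5+ against 91.4 ± 21.3 CPM in Kit-K5- cells (adjusted p = 0.0424). Eps15 and Lrig3 were lower with Kit in K5- cells, at 86.2 ± 8.0 and 21.1 ± 4.29 CPM in Kit+K5- against 135 ± 6.55 and 37.6 ± 5.67 CPM in Kit-K5- cells.

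Of 15 genes that respond to ERK, 3 were higher and 1 lower with K5 in Kit- cells, and 6 were higher and 3 lower with Kit in K5- cells. Of all genes 16.5% and 21.3% passed in these comparisons. Dusp6, an ERK phosphatase, was at 154 ± 23.1 CPM in Kit-K5+ cells and at 183 ± 35.7 CPM in Kit+K5- cells, whereas Kit-K5- cells had 72.4 ± 11.6 CPM. Etv4, an ETS transcription factor, was at 29.8 ± 0.58 CPM in Kit-K5+ cells and at 41.6 ± 19.5 CPM in Kit+K5- cells, whereas Kit-K5- cells had 10.8 ± 2.74 CPM. Ccnd1 was at 825 ± 139 CPM in Kit+K5- against 171 ± 61.7 CPM in Kit-K5- cells (a log2 difference of 2.27 ± 0.37, adjusted p = 0.00082), and Myc at 154 ± 48.5 CPM in Kit-K5+ against 80.7 ± 25.9 CPM in Kit-K5- cells (adjusted p = 0.0433). After epithelial scaling the signs of Dusp6, Etv4 and Myc turned in the comparisons named. Spry4, a feedback inhibitor of the same pathway, moved against them, at 26.8 ± 4.76 CPM in Kit-K5+ cells and at 41.1 ± 7.55 CPM in Kit+K5- cells, whereas Kit-K5- cells had 177 ± 63.2 CPM. Median log2 differences of this list were 0.63 with K5 in Kit- and 0.83 with Kit in K5- cells, beside 0.04 and 0.05 over all genes. After epithelial scaling 10 and 8 of the 15 were lower and 0 higher in these comparisons. Of all 17030 genes 11331 and 12766 were then lower. With the block, 5 were higher and 3 lower with K5 in Kit- cells, where 4057 of all 17030 genes were called. These genes also respond to other receptors that activate ERK, among them the FGF receptors and Kit itself.

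Among 8838 genes with a mean of 10 CPM or more, those with the level pattern most like Egfr over the 12 libraries were Crim1, Asah2, Camk4, Wls and Scube3. Their root mean square difference from Egfr, on log2 CPM centred per gene, was 0.206 to 0.422, where Egfr itself varied by 0.950. Crim1 was at 18.5 ± 6.23 CPM in Kit+K5+ cells and 13.7 ± 9.74 CPM in Kit+K5- cells, and at 53.9 ± 8.69 CPM in Kit-K5+ cells and 27.0 ± 4.13 CPM in Kit-K5- cells. The genes most like Erbb3 were Uck2, Slc38a1, Cdca7l, Camsap3 and Ide, at 0.215 to 0.281, where Erbb3 varied by 0.942. Uck2 was at 137 ± 2.59 CPM in Kit+K5+ cells and 140 ± 30.9 CPM in Kit+K5- cells, and at 70.7 ± 6.36 CPM in Kit-K5+ cells and 33.6 ± 7.35 CPM in Kit-K5- cells. These lists describe likeness over 12 libraries that share groups and scaling, and carry no test.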

How the data were processed

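The 12 libraries (4 sorted groups of 3) were deposited by the authors as whole-number counts of reads per gene symbol, not normalized. Per the labels' protocols, STAR 2.4.2a aligned the 50 nt single reads to GRCm38/mm10 and featureCounts gave the counts. Per the submitters' processing notes its version was 1.4.6-p3, the build was GRCm38.p3, and Picard 1.129 and FastQC were also used. Neither the annotation nor a strand setting is stated. The series matrix and the single tables differed in 0 cells. Positions and exon lengths are from GENCODE M21, which 39469 symbols matched.

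The tests were run in edgeR 4.0.16 under R 4.3.3 (filterByExpr, TMM, glmQLFit, glmQLFTest, 1 coefficient per group, 8 residual degrees of freedom, common biological coefficient of variation 0.437). Contrasts were Kit within each K5 class, K5 within each Kit class, and the interaction. SE is the log2 difference over the root of F, and 95% intervals use the moderated degrees of freedom. DESeq2 1.42.0, limma-voom (limma 3.58.1), other scalings and filters, thinning, dropping mitochondrial counts, a block and leaving out libraries were alternatives. Per-kilobase levels use merged exon length. A count of 0 allows up to 3 counts, and such floors cover counting error only. On simulated counts the fit recovered 22 to 25 of 100 genes changed 2-fold and 89 to 94 of 100 changed 4-fold in the comparisons of groups. In the interaction it recovered 4 and 60 of 100. Most simulated 2-fold changes thus did not pass, so a gene without a call may still differ.

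Members and lists were chosen with earlier results of these data known. Named genes were all members, the gate genes, up to 4 genes per pathway list and comparison past the threshold with the smallest adjusted p (failing any, the 2 with the highest mean), and the 5 genes most like Egfr and Erbb3 (log2 CPM, prior count 2, predicted genes left out). Not every gene this rule gives is written out, and those shown were picked after their values were seen.

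Libraries numbered 1 to 4, 5 to 8 and 9 to 12 hold replicates 1, 2 and 3 of each group. The labels state no shared sort. Deviations from group means correlated within replicate numbers at r of 0.263 to 0.369 (K5 in Kit+), 0.153 to 0.207 (K5 in Kit-), 0.108 to 0.157 (Kit in K5+) and 0.299 to 0.408 (Kit in K5-), all over 0.1, so the numbers pair the libraries in these comparisons. Over all 18 pairs the lowest was 0.0928, so by a cut of 0.1 the interaction does not qualify, although all 18 were positive. The main fit and the fits that left out libraries did not use this pairing.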

Additional observations from a re-analysis of the deposited data

Results flagged for a closer look

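None of the ErbB genes had a K5 difference that differed between the Kit classes by the interaction test of edgeR. Of the 72 pathway genes tested, 6 did, where 4.02% of all genes did. Passing this test was a ground for naming genes, so no share among the named genes is given. Whether the pathway genes differed from the ErbB genes in this was not tested. The difference given is that between Kit+K5+ and Kit+K5- cells minus that between Kit-K5+ and Kit-K5- cells, on the log2 scale.

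For Adam12 it was 5.08 ± 0.66 (adjusted p = 0.000509), for Spry4 2.57 ± 0.40 (adjusted p = 0.0023) and for Timp3 2.45 ± 0.45 (adjusted p = 0.0075), all 3 highest in Kit-K5- cells. For Etv4 it was -1.90 ± 0.50 (adjusted p = 0.0489), for Dusp6 -1.23 ± 0.29 (adjusted p = 0.0321) and for Pik3r1 -1.18 ± 0.26 (adjusted p = 0.0217), all 3 lowest in Kit-K5- cells. In the same libraries the 12 mesenchymal markers summed to 11640 to 18909 CPM, against 580 to 1120 CPM in the other 9. The part of these markers in the 6 differences was not tested. The calls for Adam12, Timp3 and Spry4 held without each library in turn, and those for Pik3r1, Dusp6 and Etv4 were lost without 5, 9 and 11 of the 12.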

How the results depend on the processing

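With the replicate block, members called were 2 with Kit in K5+, 4 with Kit in K5-, 2 with K5 in Kit-, 0 with K5 in Kit+ and 0 in the interaction, as without it, and the block changed no call of the 8 ErbB genes tested. Adjusted p with the block were lower for these calls. With Kit in K5+ they were 0.00332 for Egfr and 0.0128 for Erbb3. With Kit in K5- they were 0.00237 for Egfr, 3.6e-05 for Erbb3, 0.00865 for Erbb4 and 0.0182 for Tgfa. With K5 in Kit- they were 0.00212 for Egfr and 0.00753 for Erbb3. Over all genes it called 788 with Kit in K5+ (112 without it), 54 with K5 in Kit+ (0 without it) and 1418 in the interaction (684 without it).

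Genes called with Kit in K5+ were 1092 by DESeq2, 58 by limma-voom, 1212 without a filter, 72 from the compared groups only and 69 with total counts only. With K5 in Kit+ DESeq2 called 123 and no filter 318, and in the interaction they called 1434 and 1960. With the compared groups only, 1 member was called with Kit in K5+, Egfr. Leaving out libraries gave 0 to 4 genes with K5 in Kit+, 548 to 2230 with K5 in Kit-, 1 to 63 with Kit in K5+, 851 to 3385 with Kit in K5- and 87 to 729 in the interaction, the lowest of the last 4 without replicate 2 of all groups. The members called were then 0, 0 to 3, 0 to 1, 1 to 4 and 0. Single libraries that moved a count by over 1.5 times were each of the 6 with Kit in K5+ (4 without replicate 1 of Kit+K5+), replicates 1 and 2 of Kit-K5- with K5 in Kit- (1362 and 1642), replicate 2 of Kit+K5- and replicates 1 and 2 of Kit-K5- with Kit in K5- (2123, 2197 and 2398), and replicate 2 of Kit+K5+ and replicates 1 and 2 of Kit-K5- in the interaction (416, 370 and 396).

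Scaling to general epithelial genes gave 209 genes and 0 members with Kit in K5+, 12803 and 7 with Kit in K5-, 11462 and 5 with K5 in Kit-, 35 genes with K5 in Kit+, and 8098 and 5 in the interaction. The higher to lower split was then 11 to 198 (57 to 55 under TMM), 37 to 12766 (1729 to 1895), 131 to 11331 (1256 to 1550) and 7967 to 131 (478 to 206). Total counts only gave 760 to 2011 with K5 in Kit-, and upper-quartile scaling 35 to 64 with Kit in K5+ and 369 to 262 in the interaction. Log2 differences of members, and of pathway genes in the comparisons that name them, that changed sign under epithelial scaling were, with K5 in Kit-, -0.50 for Egfr, -1.44 for Erbb2, -0.71 for Erbb3, -1.35 for Erbb4, -0.94 for Tgfa, -1.35 for Errfi1, -0.14 for Pik3r1, -0.72 for Pik3cb, -0.18 for Grb7, -0.62 for Dusp6, -0.26 for Etv4 and -0.78 for Myc. With Kit in K5- they were -1.68 for Erbb2, -1.10 for Tgfa, -2.09 for Errfi1, -0.39 for Pik3cb, -0.28 for Hras, -0.71 for Dusp6 and -0.069 for Etv4. With Kit in K5+ they were -0.28 for Erbb2 and -0.17 for Hbegf. In the interaction they were 1.16 for Egfr, 0.80 for Erbb3, 1.4 for Erbb2, 1.60 for Tgfa, 1.23 for Errfi1, 0.54 for Pik3r1 and 0.48 for Dusp6. Apart from the scale set by the chosen genes, the cause was not tested.

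The call of Erbb4 with Kit in K5- was lost with limma-voom, thinning and upper-quartile scaling (adjusted p 0.0578, 0.0791 and 0.0515), and that of Tgfa without a filter and with total counts only (0.0769 and 0.0716). The order of the receptors per kilobase was the same in all 4 groups with longest transcript lengths and with total counts. Among the 10 ErbB genes, depth limits Erbb4, Areg and Btc most.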
